A study of Bos taurus with 32 samples.

Results

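The adenosines described here lie in transcripts of translation initiation factors and of the genes that act on them. They are the rows of the m6A site table whose gene symbol begins with EIF and a digit, other than EIF4G2 and EIF4A1, with a score of at least 0.1 in germinal vesicle oocytes. The rule gave 447 sites in 38 genes, out of 60417 sites that reach this score at that stage in the whole table. EIF4G2 and EIF4A1, which hold 39 and 17 such sites, were left out, and 29 further rows of the same symbols fell below the minimum. The germinal vesicle score chose the sites, so their number and scores at that stage are given as a description.

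The RNA modification m6A (N6-methyladenosine), a methylated adenosine, was mapped in bovine (Bos taurus) oocytes and embryos by m6A-SAC-seq, in which the marked base receives an allyl group and is then read as a mutation. The 8 stages run from the immature oocyte at the germinal vesicle (GV) stage and the matured oocyte arrested in metaphase II (MII) through embryos of 2, 4, 8 and 16 cells to the morula and the blastocyst. Each stage has 4 libraries of total RNA, 2 from an input arm and 2 from a treated arm, and the labels give 200 cells per stage and replicate. Oocytes were collected from follicles of 3 to 5 mm of slaughterhouse ovaries, matured in vitro for 22 to 23 h and fertilised for 18 h with thawed Holstein semen, and embryos were cultured until day 7.5. No genotype, drug or other treatment distinguishes the stages, and the age of the ovary donors is not given.

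The table holds 1 score per adenosine and stage, pooled over libraries, with no replicate value. No difference therefore has a replicate check, and no test was made. A site is called at a stage where its score is at least 0.1. Shares are given with exact Clopper-Pearson intervals at 95%, which cover the counting of sites only, and neighbouring sites of 1 transcript are not independent of each other. Read depth is unknown. Where a site is not called, fewer copies of the transcript and less methylation per copy cannot be told apart. A score of 0 can also stand for a site with no estimate.

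Initiation factors bring the ribosome to the start codon of a messenger RNA. The eIF4 factors bind the cap and unwind the leader, eIF3 joins the small ribosomal subunit to them, eIF2 carries the initiator tRNA, and eIF1, eIF1A, eIF5 and eIF5B take part in start codon choice and subunit joining. Growing oocytes store messenger RNAs in a translationally silent form, and translation in the maturing oocyte and early embryo uses these stores until the embryonic genome is transcribed. Proteins that bind eIF4E are part of that silencing in animal oocytes.

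The bases around a modified adenosine are the only sequence the table holds, and they are shown because the sites that recur across stages differ in them. In each string the capital A is the modified adenosine, the outer bases are its neighbours from 5′ to 3′, and T stands for U. The 2 sites called at all 8 stages come first, then a ggAct of EIF4E and a ggAct of EIF4G1 that were called at 6 and 7 stages, then the sites with the 3 highest GV scores.
EIF1, coding sequence, chromosome 19, position 41908100: tgAtg
EIF4E, 3′ UTR, chromosome 6, position 25704809: agAct
EIF4E, 3′ UTR, chromosome 6, position 25704868: ggAct
EIF4G1, coding sequence, chromosome 1, position 82866271: ggAct
EIF5A, 3′ UTR, chromosome 19, position 27020322: aaAga
EIF4G1, coding sequence, chromosome 1, position 82866018: gtAgc
EIF4A2, 3′ UTR, chromosome 1, position 80467923: ttAgt
Positions are printed as deposited; for their genome build no name is given in the sources used here.

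The usual m6A motif, DRACH, allows A, G or U, then A or G, before the modified A, followed by C and by A, C or U. It was found at 102 of the 440 sites that have a motif (23.2%), against 34.2% of all GV-called sites with a motif. The most frequent 5-base string among the 447 sites was agAtg with 40 sites (9.09%, against 8.60% of all sites), followed by tgAtg with 29 sites (6.59% against 4.37%), both outside DRACH. The DRACH string ggAct was found at 20 sites (4.55% against 6.72%), with a median GV score of 0.228 against 0.435 over all sites with that string. Coding sequence held 346 of 445 sites with a known region (77.8%, against 71.0% of all sites). The 3′ UTR held 84 (18.9% against 22.9%), the 5′ UTR 8 and introns 7. The median GV score was 0.191, against 0.216 over all GV-called sites, which hold more DRACH sites. Outside DRACH it was 0.186 against 0.190, and at DRACH sites 0.240 against 0.314.

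From the 8-cell embryo to the blastocyst, a larger share of GV-called sites was called again in initiation factor genes than in the whole table. Of the 447 sites, 161 were called at MII (36.0%, interval 31.6 to 40.7), against 34.1% of all GV-called sites. In 2-cell embryos 37 were called (8.28%, 5.89 to 11.2), against 7.39%, and in 4-cell embryos 118 (26.4%, 22.4 to 30.7), against 22.7%. At these 3 stages the share of all sites lies inside the interval, so the counts say nothing particular about these genes. In 8-cell embryos 74 sites were called (16.6%, 13.2 to 20.3), against 9.32%, and in 16-cell embryos 69 (15.4%, 12.2 to 19.1), against 6.01%. In morulae 62 were called (13.9%, 10.8 to 17.4), against 4.42%, and in blastocysts 102 (22.8%, 19.0 to 27.0), against 7.64%. The share of all sites lies below the interval at each of the last 4 stages, where the ratio of both shares was 1.78, 2.57, 3.14 and 2.99.

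**Figure D1:**
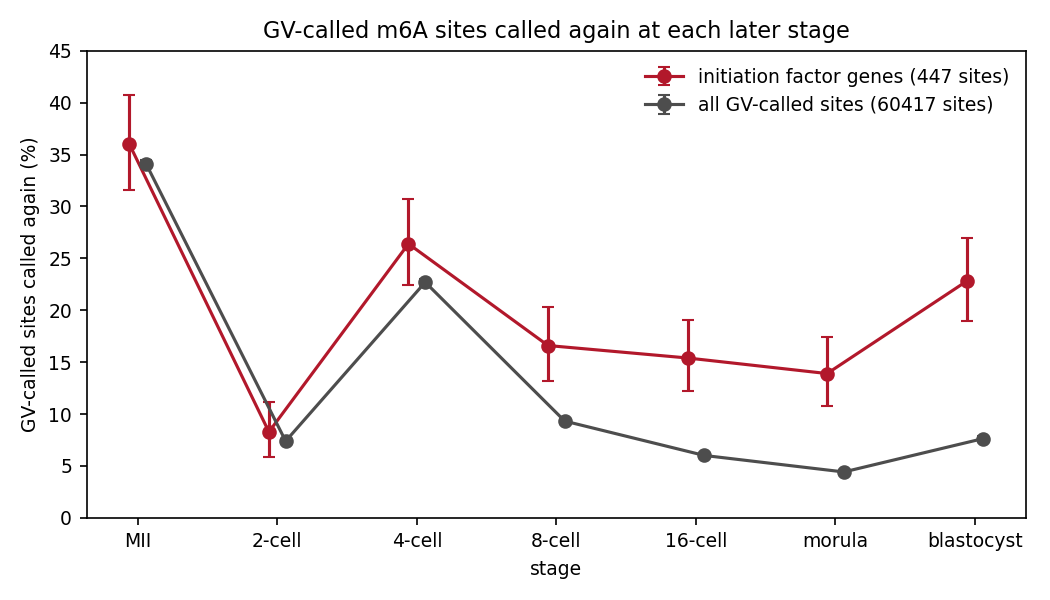
Percentage of GV-called sites that were called again (score of at least 0.1) at each later stage, for the 447 initiation factor sites and for all 60417 sites; bars show exact 95% intervals of the count. The curves run close together from MII to the 4-cell embryo and lie apart from the 8-cell embryo on, ending at 22.8% and 7.64% in blastocysts.

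The same calls can be sorted by following each site through development, which is another view of them and not a separate result. Of the 447 sites, 172 were called at GV alone (38.5%, against 52.0% of all sites). A further 121 were called again between MII and the 8-cell embryo and not later (27.1% against 36.0%). The 41 sites that were not called from MII to the 8-cell embryo and came back between the 16-cell embryo and the blastocyst made up 9.17%, against 3.25%. Both periods had calls at 113 sites (25.3% against 8.78%). Morula and blastocyst shared 32 called sites, which is 51.6% of the morula and 31.4% of the blastocyst sites, against 61.8% and 35.8% over all sites. Calls at MII and in 4-cell embryos shared 76 sites, 47.2% and 64.4% of each, close to the 43.3% and 65.2% over all sites.

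Of the 38 genes, 26 had a called site at MII, 13 in 2-cell embryos, 22 in 8-cell embryos and 23 in blastocysts. Of the 19 genes with at least 10 GV-called sites, 16 exceeded the share of all sites in morulae and 14 in blastocysts. Among all 1953 protein-coding genes of that size, 21.5% and 26.2% did. At MII the same count was 10 of 19, against 55.3% of the 1953 genes.

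**Figure D2:**
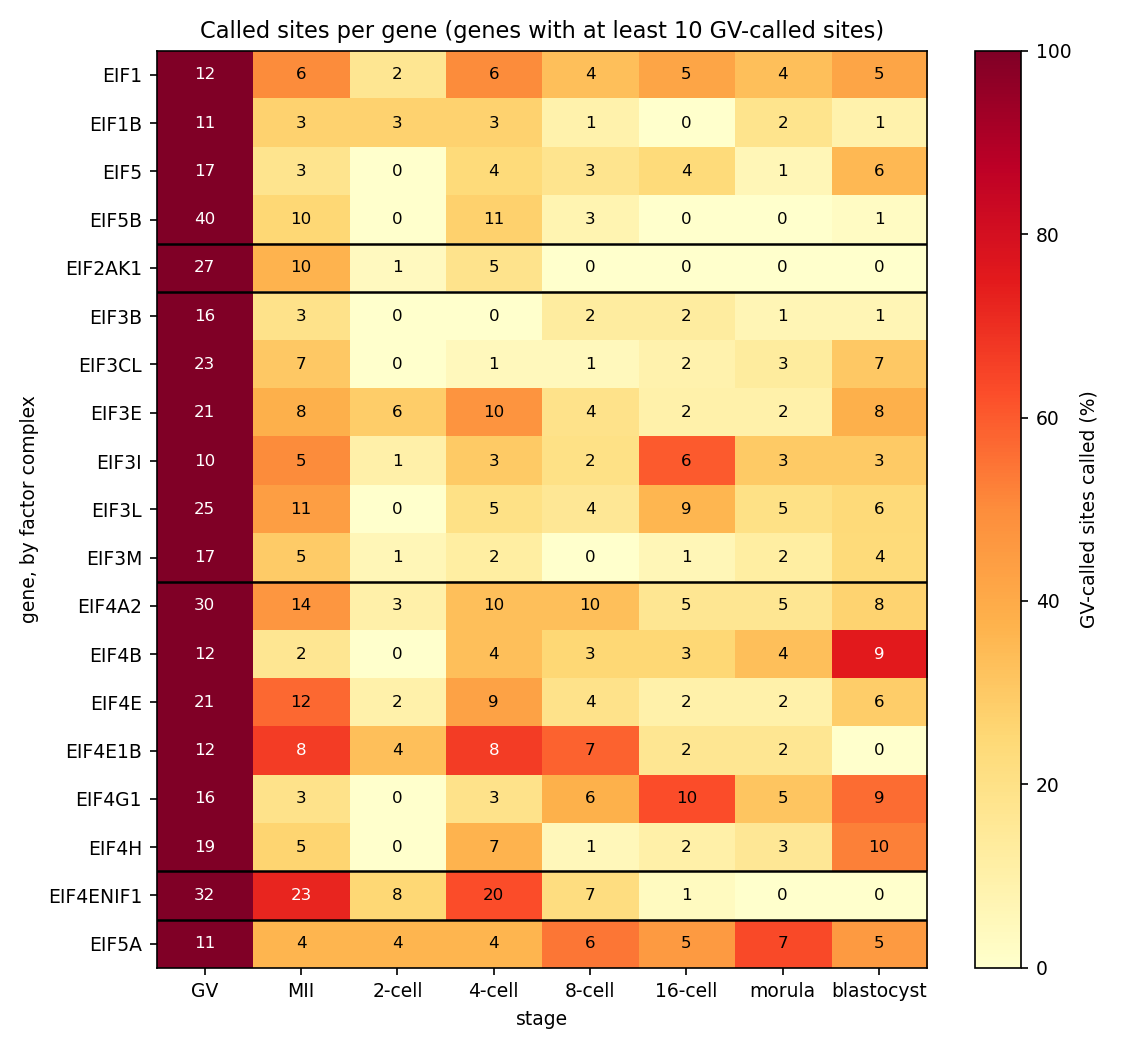
Percentage of GV-called sites called at each stage (colour) for the 19 initiation factor genes with at least 10 sites, ordered by factor complex with lines between complexes; the number in each cell counts called sites, and GV is 100% by the rule. EIF4ENIF1 is dark red at MII (71.9%) and pale from the 16-cell embryo on, while EIF4B is darkest after GV in blastocysts (75.0%).

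At sites called both at GV and later, the median score ratio was close to the GV level except in 2-cell embryos. Only sites with a score of at least 0.1 at both stages entered. Sites that fell below this minimum are therefore missing from the medians. The median log2 ratio to GV was −0.08 at MII over 161 sites, 0.40 in 2-cell embryos over 37, 0.04 in 4-cell and 0.11 in 8-cell embryos. It was 0.10 in 16-cell embryos, 0.02 in morulae and 0.09 in blastocysts. The corresponding medians over all sites were −0.11, 0.31, −0.06, 0.16, 0.15, 0.19 and 0.19. The middle 50% of the ratios in blastocysts ran from −0.23 to 0.56 over 102 sites, and 57 of these scored above GV.

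The start codon and scanning factors held 91 sites in 6 genes, of which 28 were called at MII (30.8%), 24 in 4-cell embryos (26.4%) and 15 in blastocysts (16.5%, 9.53 to 25.7). The shares of all sites at these stages, 34.1%, 22.7% and 7.64%, lie inside the interval at MII (21.5 to 41.3) and in 4-cell embryos (17.7 to 36.7) and below it in blastocysts. EIF5B holds 40 of the 91 sites, and without it the blastocyst share was 27.5%. EIF1, which keeps the scanning ribosome open until it meets a start codon, had 12 sites between positions 41908100 and 41909486 of chromosome 19. Of these, 6 were called at MII and then 2, 6, 4, 5, 4 and 5 from the 2-cell embryo to the blastocyst. One coding site, the tgAtg at position 41908100, was called at every stage. Its scores were 0.210 at GV, 0.247 at MII and then 0.300, 0.226, 0.203, 0.188, 0.194 and 0.213, so its level stayed between 0.188 and 0.300. EIF1B, a close copy of EIF1 on chromosome 22, had 11 sites, of which 3 were called at MII, 3 in 2-cell and 3 in 4-cell embryos, then 1, 0, 2 and 1. How reads that match both copies were treated is not given, and the same holds for the other near-identical genes described here.

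EIF5B, the GTPase that joins the large ribosomal subunit, had the most sites of the 38 genes, 40 spread over 77012 bases of chromosome 11. Of the 40, 10 were called at MII, 0 in 2-cell embryos, 11 in 4-cell embryos and 3 in 8-cell embryos. None was called in 16-cell embryos or morulae, and 1 in blastocysts, so that 26 sites were seen at GV alone. EIF1 and EIF5B both had more calls at MII and in 4-cell than in 2-cell embryos, and differed in the later stages. No call at a late stage was common in the table, being the case for 65.2% of the 1953 protein-coding genes with at least 10 sites in 16-cell embryos and for 75.8% in morulae. EIF5, which stimulates GTP hydrolysis by eIF2, had 17 sites, of which 3 were called at MII, 0 in 2-cell embryos and then 4, 3, 4, 1 and 6, the 6 blastocyst calls being 35.3% of its sites. EIF1AX, the X-linked gene of eIF1A, had 7 sites with 4 called at MII, none in 2-cell and 4-cell embryos, and then 1, 1, 3 and 2. EIF1AD, a gene with an eIF1A-like domain, had 4 sites, 2 of them called at MII and none later. The strongest of these, a ggAca at position 44090407 of chromosome 29, scored 3.04 at GV and 2.65 at MII.

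Genes of the eIF2 cycle, which supplies the initiator tRNA, had few sites. Their lists were set beside the table separately and were not pooled. None of their GV-called sites was called from the 8-cell embryo on. The factor itself had 4 GV-called sites, 3 in EIF2S3 (eIF2 gamma) and 1 in EIF2S1 (eIF2 alpha), and the only later call was 1 EIF2S3 site in 2-cell embryos. Its exchange factor eIF2B, which reloads eIF2 with GTP, had 8 sites in EIF2B1, EIF2B3 and EIF2B4, and 0 of the 8 were called at any later stage, which allows a share of up to 36.9% by the exact interval and so includes the share of all sites at every stage. The eIF2 kinases, which slow initiation by phosphorylating eIF2 alpha, had 32 sites, of which 11 were called at MII, 1 in 2-cell embryos, 5 in 4-cell embryos and 0 from the 8-cell embryo on. The upper bound of 10.9% includes the share of all sites at each of these 4 stages.

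EIF2AK1, the haem-regulated kinase, accounts for 27 of the 32 kinase sites, 22 in coding sequence and 5 in the 3′ UTR, on chromosome 25. Calls at MII numbered 10, followed by 1 in 2-cell and 5 in 4-cell embryos and none later. A 3′ UTR ggAct at position 38039347 was called at 4 stages, with scores of 0.864 at GV, 0.555 at MII, 1.01 in 2-cell and 0.275 in 4-cell embryos. EIF2AK3 (PERK), with 3 sites, had 1 called at MII, and EIF2AK4 (GCN2), with 2, had none. Of the other genes on these lists, EIF2S2, EIF2A, EIF2D, EIF2B2, EIF2B5 and EIF2AK2 had no GV-called site. At MII, 3, 2 and 1 sites of EIF2S2, EIF2A and EIF2D were called, and some of these were called later too. An EIF2A site scored 6.63 in 16-cell embryos and another 0.952 in morulae. Sites of EIF2S2 scored 2.27 in 4-cell embryos, 0.216 in 16-cell embryos and 0.150 in blastocysts.

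The eIF3 subunits, with 139 sites in 12 genes, had 47 calls at MII (33.8%), 9 in 2-cell, 23 in 4-cell and 17 in 8-cell embryos. They then had 28 in 16-cell embryos (20.1%), 23 in morulae and 39 in blastocysts (28.1%, 20.8 to 36.3). From MII to the 8-cell embryo the shares of all sites, 34.1%, 7.39%, 22.7% and 9.32%, lie inside the intervals of the eIF3 shares. From the 16-cell embryo on the shares of all sites, 6.01%, 4.42% and 7.64%, lie below them. Within the complex the genes with at least 10 sites differed in when their sites were called. EIF3I, a WD-repeat subunit, had 10 sites on chromosome 2, of which 5 were called at MII and then 1, 3, 2, 6, 3 and 3. Its 6 calls in 16-cell embryos (60.0%) placed it among the 20 of 1953 genes with a share at least as high at that stage. EIF3L had 25 sites, with 11 calls at MII, none in 2-cell embryos and then 5, 4, 9, 5 and 6. Both genes thus had more calls in 16-cell embryos than in 8-cell embryos or morulae.

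EIF3E, a subunit of the PCI-domain core, had 21 sites on chromosome 14, of which 8 were called at MII and then 6, 10, 4, 2, 2 and 8. Like EIF1, EIF3I, EIF4A2, EIF4E and EIF5A, it was above the share of all sites at all 7 later stages. Its agAtc at position 56246019 was called at every stage except the morula, with scores between 0.129 and 0.240. EIF3CL, for which RefSeq lists EIF3C, a core subunit, as a synonym, had 23 coding sites, with 7 calls at MII and then 0, 1, 1, 2, 3 and 7. EIF3M had 17 coding sites, of which 5 were called at MII and then 1, 2, 0, 1, 2 and 4. EIF3B, a scaffold subunit, had 16 sites and few later calls, with 3 at MII and then 0, 0, 2, 2, 1 and 1. EIF3CL and EIF3M thus had more calls at MII and in blastocysts than at any stage between.

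Among the smaller eIF3 genes, EIF3K had 6 sites, of which 5 were called at MII, none from the 2-cell to the 8-cell embryo, and then 2, 3 and 2. One of them, an agAct at position 48392454 of chromosome 18, had the highest blastocyst to GV ratio of the 447 sites, with scores of 0.111 at GV, 0.20 at MII and 0.396 in blastocysts, a log2 ratio of 1.83. EIF3H had 8 sites, with 3 calls at MII, 1 and 2 in 2-cell and 4-cell embryos, none in 8-cell and 16-cell embryos, and 3 in both morulae and blastocysts. EIF3A, EIF3D, EIF3F and EIF3J had 2 to 5 sites each, and none of these was called from MII to the 4-cell embryo. A further EIF3F site, not called at GV, was called at MII with a score of 0.172. Both EIF3J sites were called in 16-cell embryos and in blastocysts.

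The eIF4 factors, with 126 sites in 9 genes, had 48 calls at MII (38.1%), 9 in 2-cell embryos, 42 in 4-cell embryos (33.3%), then 31, 25 and 22, and 43 in blastocysts (34.1%, 25.9 to 43.1). The shares of all sites at MII (34.1%) and in 2-cell embryos (7.39%) lie inside the intervals of the eIF4 shares. From the 4-cell embryo on the shares of all sites, 22.7%, 9.32%, 6.01%, 4.42% and 7.64%, lie below them. EIF4E, the canonical cap-binding protein, had 21 sites on chromosome 6, of which 12 were called at MII and then 2, 9, 4, 2, 2 and 6. Its 10 coding and 10 3′ UTR sites were called equally often at MII, 6 each. In 2-cell embryos, in 16-cell embryos and in morulae no coding site was called, and 2 of the 3′ UTR sites were called at each stage. The 3′ UTR agAct at position 25704809 was called at all 8 stages, with scores of 0.491 at GV, 0.447 at MII and then 0.237, 0.392, 0.432, 0.189, 0.556 and 0.535. The ggAct at position 25704868, in the same 3′ UTR, scored 0.908 at GV, 0.729 at MII, 0.446, 0.660, 0.813 and 0.830 from the 4-cell embryo to the morula, and was listed at 0 in 2-cell embryos and blastocysts.

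EIF4E1B, an eIF4E relative known for its expression in oocytes, followed a different course from EIF4E. Of its 12 sites on chromosome 7 (gene ENSBTAG00000003103), 8 were called at MII, 4 in 2-cell, 8 in 4-cell and 7 in 8-cell embryos, then 2 in 16-cell embryos and 2 in morulae, and 0 in blastocysts. Its 8-cell share of 58.3% was reached by 30 of the 1953 genes. A coding ggAct at position 38112049 was called at 6 stages in a row, with scores of 0.20 at GV, 0.263 at MII, 0.312, 0.197, 0.370 and 0.294 in 16-cell embryos. EIF4E2, another eIF4E relative, had 2 sites, 1 of them called at MII and none later.

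EIF4ENIF1, the eIF4E transporter (4E-T), which binds eIF4E and is a component of ribonucleoprotein granules of stored messenger RNA, had the largest share of sites called at MII among the 19 genes with at least 10 sites. Its 32 sites (gene ENSBTAG00000008991) lie between positions 70189409 and 70228527 of chromosome 17, 27 in coding sequence, 4 in the 3′ UTR and 1 in the 5′ UTR. At MII 23 were called (71.9%, 53.3 to 86.3), in 2-cell embryos 8, in 4-cell embryos 20 (62.5%) and in 8-cell embryos 7. A single site was called in 16-cell embryos and none in morulae or blastocysts. The shares of all sites at MII (34.1%), in 2-cell (7.39%) and in 4-cell embryos (22.7%) lie below the intervals of EIF4ENIF1. From the 8-cell embryo on the shares of all sites lie inside its intervals, whose upper bound in morulae and blastocysts is 10.9%. Of the 32, 28 had their last call between MII and the 8-cell embryo, and 3 were called at GV alone. Its strongest site, the coding caAgt at position 70193986, scored 1.08 at GV, 1.07 at MII and 1.15 in 4-cell embryos and was listed at 0 at the other 5 stages. Of the other genes on the list of eIF4E-binding regulators, EIF4EBP1, EIF4EBP2 and EIF4EBP3, no site was analysed here.

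**Figure D3:**
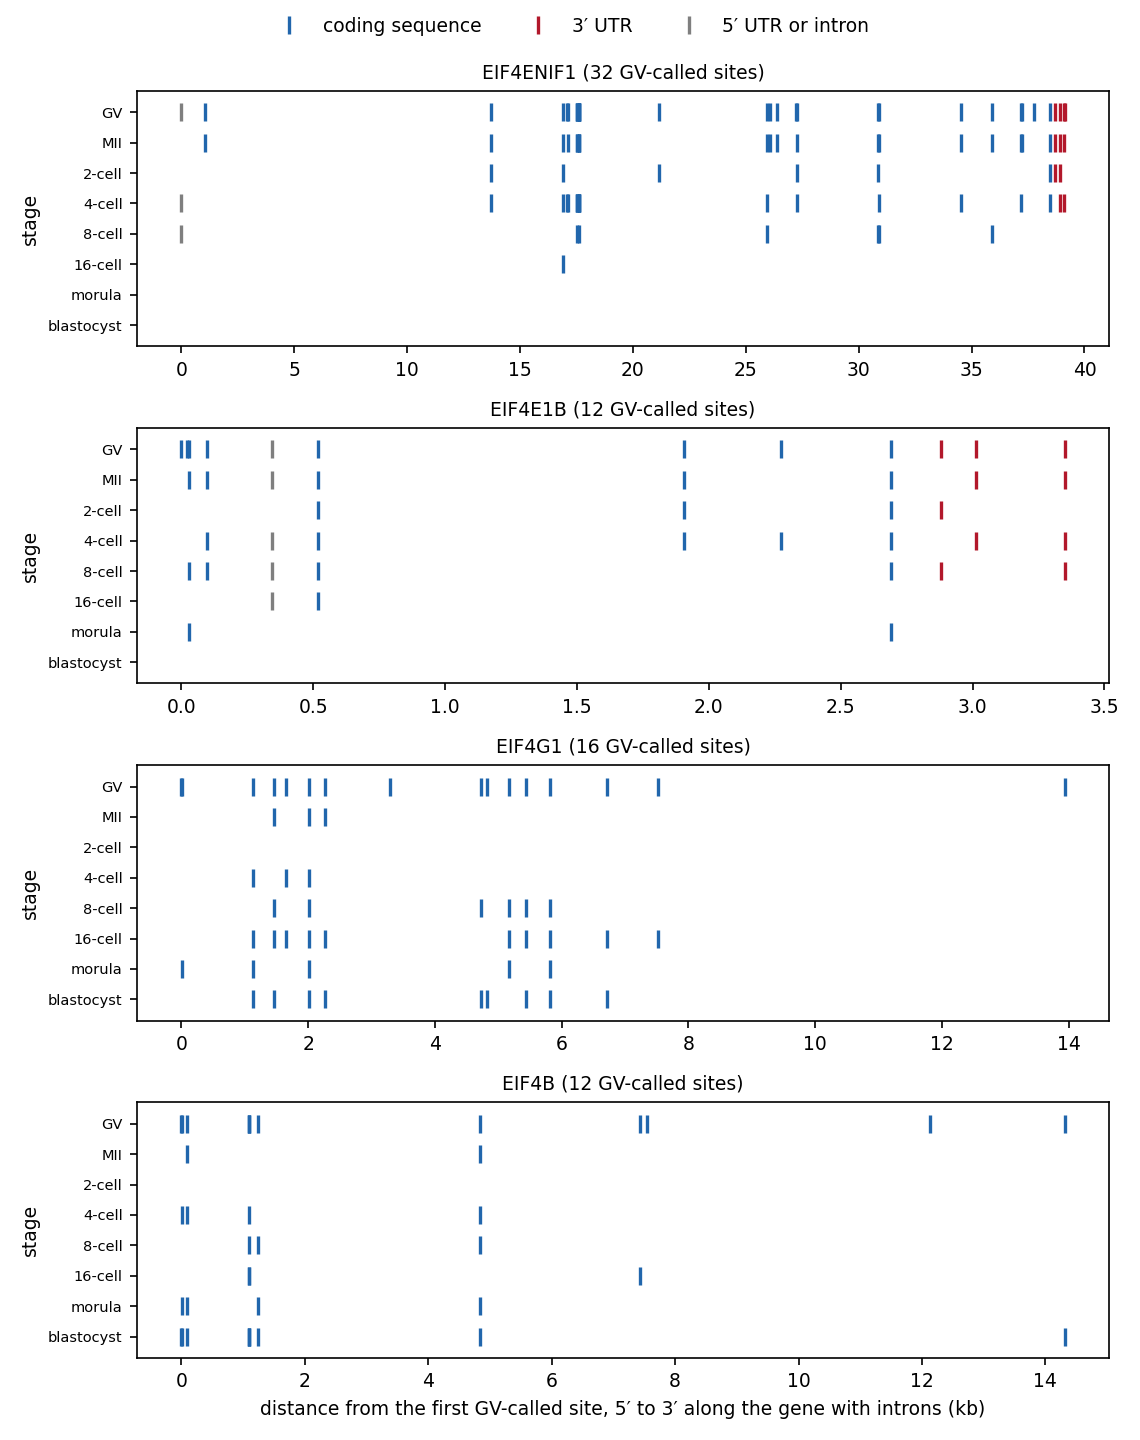
GV-called sites that were called at each of the 8 stages (rows) along 4 genes, as ticks at their distance in kb from the first site, 5′ to 3′ and with introns; blue ticks are coding, red 3′ UTR, grey 5′ UTR or intron. EIF4ENIF1 and EIF4E1B have 7 ticks each in the 8-cell row, 1 and 2 in the 16-cell row, 0 and 2 in the morula row and 0 in the blastocyst row, while EIF4G1 and EIF4B have 3 and 2 at MII and 9 each in blastocysts.

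EIF4G1, the scaffold that joins eIF4E, eIF4A and eIF3, had few of its GV-called sites called at MII and more of them late. Its 16 sites on chromosome 1 (gene ENSBTAG00000012881), all coding, had 3 calls at MII, 0 in 2-cell and 3 in 4-cell embryos, and then 6, 10, 5 and 9. Its share of 62.5% in 16-cell embryos (10 calls) was reached by 16 of the 1953 genes. The coding ggAct at position 82866271 was called at 7 stages, with scores of 0.455 at GV, 0.477 at MII, 0.624, 0.455, 0.719, 0.822 and 0.855 from the 4-cell embryo on, and was listed at 0 in 2-cell embryos. No site of EIF4G1 was limited to the stages from MII to the 8-cell embryo after GV, whereas 4 returned only from the 16-cell embryo on and 9 were called in both periods. These counts rest on sites chosen by their GV score. With 9 further sites that were called at MII and not at GV, EIF4G1 had 12 called sites at MII and 13 in blastocysts, so over all its listed sites it was not low at MII. EIF4G3, a relative of EIF4G1, had 6 sites, with 1 called in 4-cell embryos and none at the other later stages.

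EIF4B and EIF4H, which stimulate the helicase eIF4A, both had more calls in blastocysts than at any other stage after GV. Both lie outside the part of the table, described below, that lists sites called at MII and not at GV. Their MII counts therefore rest on GV-called sites alone. EIF4B (ENSBTAG00000006883) had 12 coding sites on chromosome 5, of which 2 were called at MII, 0 in 2-cell embryos and then 4, 3, 3, 4 and 9. Its blastocyst share of 75.0% was reached by 11 of the 1953 genes, of which 64.0% had no call in blastocysts. A row of 3 tgAtg sites, 3 bases apart, lies at positions 26940776, 26940779 and 26940782, and each was called at GV and in blastocysts, with blastocyst scores of 0.255, 0.204 and 0.132. EIF4H had 19 sites on chromosome 25, 11 of them in the 3′ UTR, with 5 calls at MII, 0 in 2-cell embryos and then 7, 1, 2, 3 and 10. Its blastocyst share of 52.6% was reached by 52 of the 1953 genes. EIF4H also had the site with the lowest blastocyst to GV ratio of the 447, the 3′ UTR tgAca at position 33197960, which scored 0.914 at GV, 0.675 in 4-cell embryos, 0.292 in morulae and 0.119 in blastocysts, a log2 ratio of −2.94.

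EIF4A2, a helicase that unwinds the leader and a paralogue of EIF4A1, which was left out, had 30 sites on chromosome 1, with 14 calls at MII and then 3, 10, 10, 5, 5 and 8. Its 7 sites in the 3′ UTR had 6 calls at MII and 5 in blastocysts, and its 22 coding sites 8 and 3. In 8-cell embryos 2 of the 7 sites in the 3′ UTR and 8 of the 22 coding sites were called. The 3′ UTR agAct at position 80467871 was called at every stage but the 2-cell embryo, with scores between 0.160 and 0.870. EIF4A3, the helicase of the exon junction complex, had 8 coding sites, with 3 calls at MII, none from the 2-cell to the 8-cell embryo and 1 at each of the last 3 stages.

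**Figure D4:**
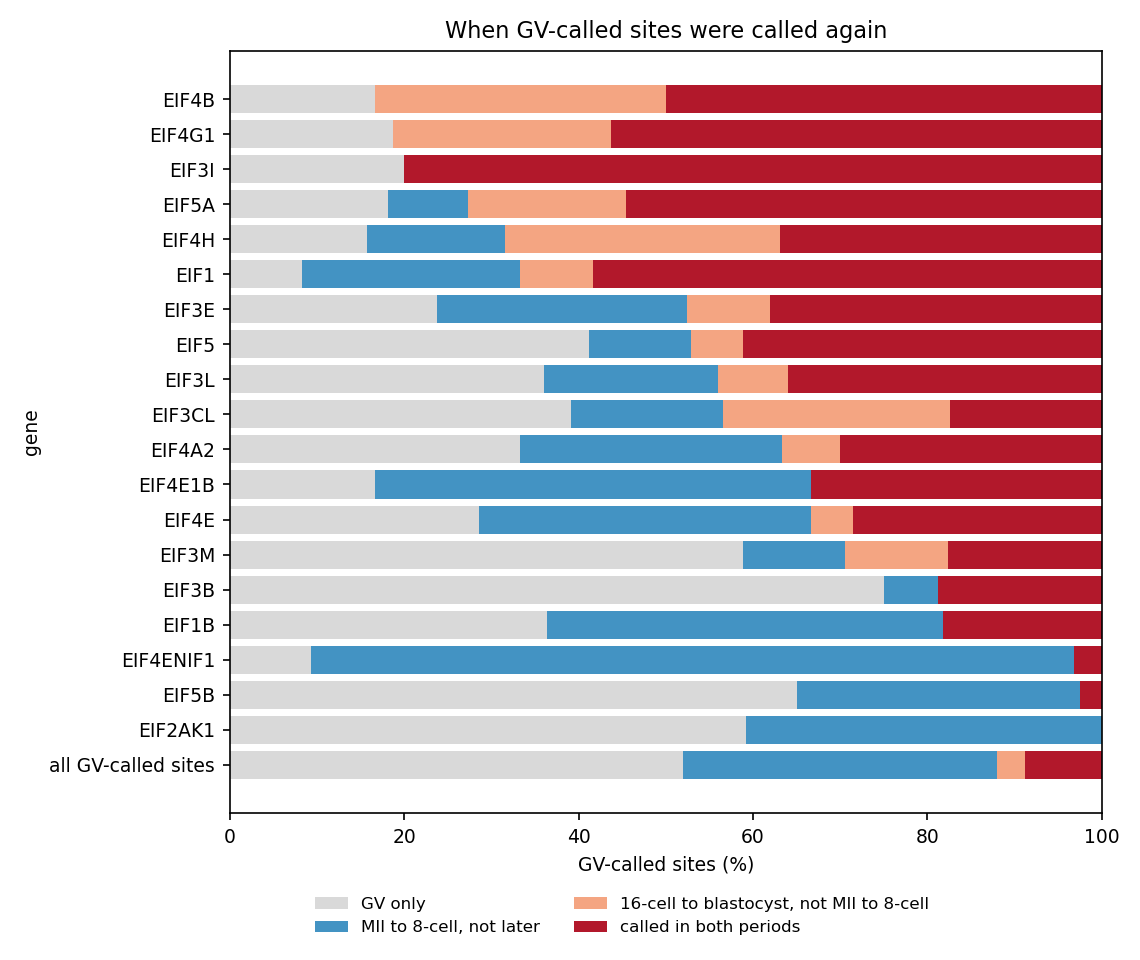
Percentage of the GV-called sites of each gene with at least 10 sites, and of all GV-called sites, divided by colour into sites called at GV alone, again between MII and the 8-cell embryo and not later, again only from the 16-cell embryo on, and in both periods. EIF4ENIF1 is mostly MII to 8-cell (28 of 32 sites), EIF5B mostly GV alone (26 of 40), and EIF3I mostly called in both periods (8 of 10).

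EIF5A and EIF6 carry initiation factor names, although eIF5A acts mainly in elongation and termination and eIF6 in maturation of the large ribosomal subunit. EIF5A had 11 sites on chromosome 19, of which 4 were called at MII, 4 in 2-cell and 4 in 4-cell embryos, and then 6, 5, 7 and 5. Its share of 63.6% in morulae (7 calls) was reached by 11 of the 1953 genes. EIF6 had 4 sites, 1 of them called in 8-cell embryos and none at the other later stages. A further EIF6 site, not called at GV, scored 0.233 at MII and 0.247 in 8-cell embryos.

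Across the 38 genes, 20 sites were called in at least 6 of the 8 stages (4.47%, against 2.37% of all GV-called sites) and 2 at all 8 (0.447% against 0.414%). The 20 belong to 9 genes. EIF5A and EIF4A2 have 4 each, EIF1, EIF3E, EIF3L, EIF4E and EIF4E1B have 2 each, and EIF4G1 and EIF4B have 1 each. Of the 8 sites called at 7 stages, 5 lacked a call in 2-cell embryos, 2 in morulae and 1 in 4-cell embryos.

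**Figure D5:**
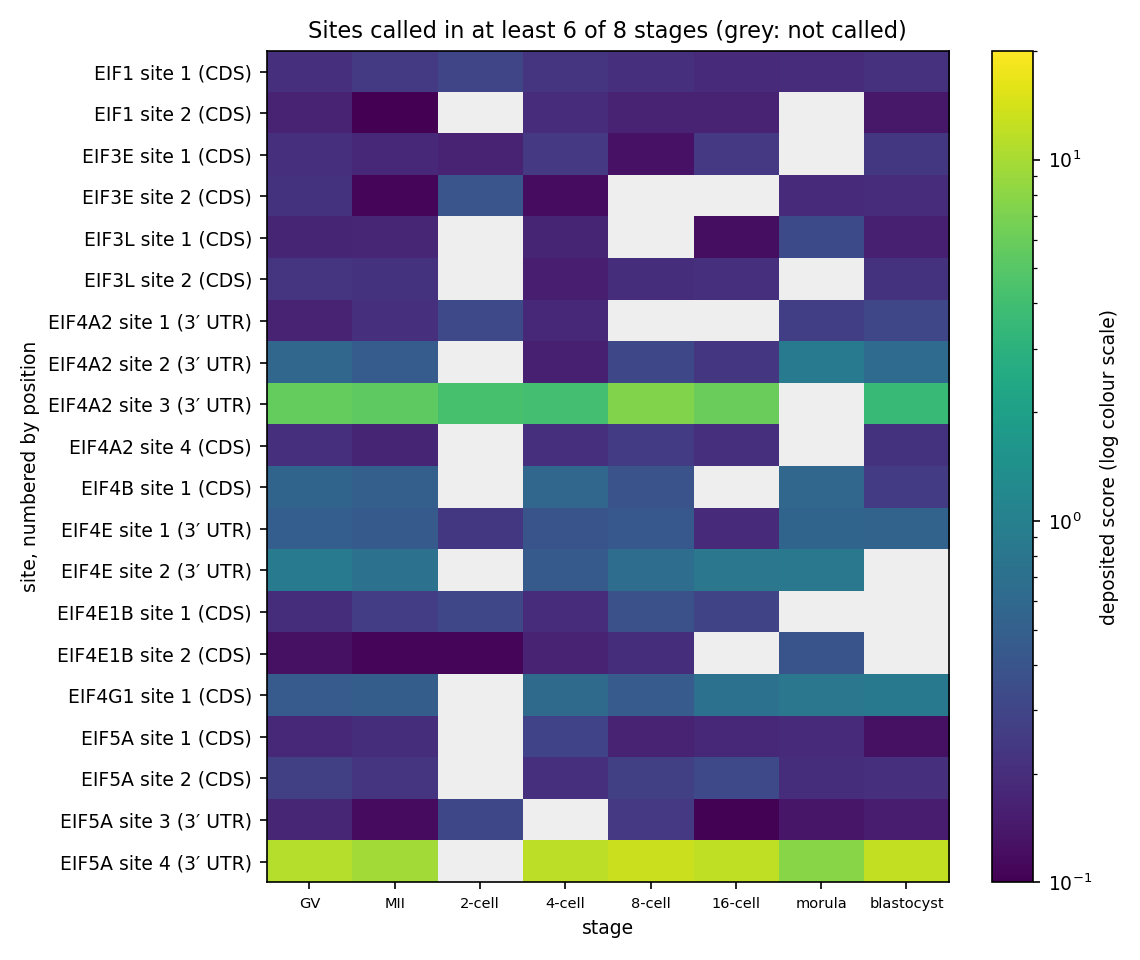
Deposited score (log colour scale) at each stage for the 20 sites called in at least 6 of the 8 stages, 1 row per site, named by gene and region and numbered by position; grey cells were not called. The row of the EIF5A site with a GV score of 11.0 and that of the EIF4A2 site with 5.67 are lighter than the others at the stages where they were called, and most grey cells lie in the 2-cell and morula columns.

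Of the 5 highest GV scores, 4 belonged to sites outside DRACH with rare strings, and the fifth to the ggAca of EIF1AD, a DRACH string found at 4.34% of all sites. The 3′ UTR aaAga of EIF5A at position 27020322 had the highest GV score of the 447 sites, 11.0, with 9.50 at MII, 0 in 2-cell embryos and then 11.7, 13.1, 12.0, 7.86 and 12.2. The coding gtAgc of EIF4G1 at position 82866018 followed with 6.49 at GV, 5.05 at MII, 6.18 in 16-cell embryos and 5.50 in blastocysts, and was listed at 0 at the other 4 stages. The 3′ UTR ttAgt of EIF4A2 at position 80467923 scored 5.67, 5.33, 4.32, 4.09, 7.33 and 5.96 from GV to the 16-cell embryo, 0 in morulae and 3.60 in blastocysts. The coding caAca of EIF3I at position 121304130 scored 3.97 at GV, 9.45 in 2-cell embryos and 3.65 in blastocysts and was listed at 0 elsewhere. These strings are rare in the table, and their sites score high in other genes too. The whole table has 28 GV-called sites with aaAga, 76 with gtAgc, 15 with ttAgt and 13 with caAca. Their median GV scores were 2.11, 2.54, 3.08 and 4.04, and their lowest were 0.330, 0.548, 1.14 and 1.32. Scores of sites with different strings are ranked here as a description, since the level of the score differs by string.

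Single sites could move far from their GV score although the medians did not. After the EIF3K site, the highest blastocyst to GV ratios belonged to a 3′ UTR agAtg of EIF1B at position 13172513, with a score of 0.183 at GV and 0.507 in blastocysts (log2 ratio 1.47), and to a 3′ UTR agAta of EIF4E at position 25704907, with 0.102 and 0.260 (1.35). A coding tgAtg of EIF3CL at position 26016808 went from 0.171 to 0.431 (1.33), and a coding tgAtg of EIF4E at position 25702506 from 0.160 to 0.398 (1.31). All 5 of these sites began with GV scores below 0.2. Below GV in blastocysts, after the 3′ UTR site of EIF4H, were its coding ggAca at position 33204069 (0.717 and 0.216, log2 ratio −1.73) and a coding agAct of EIF4B at position 26941861 (0.351 and 0.140, −1.32). A coding ggAgc of EIF4G1 at position 82862838 (0.298 and 0.133, −1.16) and a coding tgAtg of EIF4B at position 26937031 (0.556 and 0.258, −1.10) followed. EIF4B and EIF4H, whose sites were often called in blastocysts, thus supplied 4 of the 5 lowest ratios. The sites were chosen by a minimum on the GV score, so these ratios are a description.

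Sites of 1 gene often stood close together, which bears on how far they can be counted separately. In EIF1, 6 of the 11 gaps between neighbouring sites were 50 bases or less, and in EIF4A2 12 of 29. EIF4ENIF1, EIF5B and EIF4G1 were more widely spaced, with 8 of 31, 11 of 39 and 1 of 15 such gaps and median gaps of 198, 198 and 367 bases along the genome, introns included.

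Calls in the 3′ UTR and in coding sequence both exceeded the table late in development. In morulae 18 of 84 sites in the 3′ UTR were called (21.4%, against 4.97% of all such sites) and 42 of 346 coding sites (12.1% against 3.91%). In blastocysts the counts were 23 (27.4% against 8.35%) and 77 (22.3% against 7.44%). DRACH sites were called more often than others at MII, with 51 of 102 (50.0%, against 45.3% of all DRACH sites) and 108 of 338 others (32.0% against 29.4%), a difference that the whole table shows as well. In blastocysts 28 DRACH sites (27.5% against 9.09%) and 73 others (21.6% against 7.36%) were called.

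Sites called at MII and not at GV are listed for part of the table, the minus strand of chromosomes 10 to 19 and of chromosome 1 up to position 139251926, which allows MII to be set against GV without choosing sites by GV. Outside genes with symbols beginning RPL or MRPL, the window held 12425 sites with a GV call and 8797 with an MII call. The ratio was 0.708, and 46.7% of the MII sites were also called at GV. The 8 genes with an EIF symbol and a site there, which include EIF2A, EIF2D and EIF2S2, had 87 and 69, a ratio of 0.793. EIF4ENIF1 had 32 at each of both stages, 23 of them shared, so its number of called sites was the same before and after maturation. EIF4G1 had 16 at GV and 12 at MII but shared only 3. One of its 9 sites called at MII and not at GV, a 3′ UTR ggAca at position 82854168, scored 2.87 at MII, 1.89 in 16-cell embryos, 2.27 in morulae and 2.60 in blastocysts. EIF4A2 had 30 and 17, with 14 shared.

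Other genes that act on initiation were listed by function. Partners of the poly(A) tail and the cap, with 239 GV-called sites in 17 of 24 listed genes, had 43.1% called at MII, 16.3% in 2-cell embryos, 28.5% in 4-cell embryos, then 22.6%, 16.3% and 10.0%, and 17.2% in blastocysts. The shares of all sites at these stages were 34.1%, 7.39%, 22.7%, 9.32%, 6.01%, 4.42% and 7.64%. CPEB1, a repressor and activator of stored messenger RNAs in oocytes, had 27 sites, of which 14 were called at MII and then 12, 13, 12, 5, 0 and 0. PAIP1, a poly(A)-binding protein partner, likewise had 27, with 21 at MII and then 16, 21, 15, 3, 0 and 1. PABPC1, the cytoplasmic poly(A)-binding protein, had 20, with 11 at MII and 11 in blastocysts. Kinases that control initiation and genes of the stress response, with 126 sites in 13 of 16 genes, had 30.2% called at MII and 5.56% in blastocysts (2.26 to 11.1), both close to the 34.1% and 7.64% of all sites. Elongation and termination factors, with 76 sites in 6 of 11 genes, had 31.6% at MII (21.4 to 43.3), which includes the share of all sites, and 46.1% in blastocysts (34.5 to 57.9), which lies above it, led by EEF2 with 19 of its 29 sites. The 56 sites of EIF4G2 and EIF4A1 had 57.1% and 64.3%.

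Marker genes of the cells themselves moved over the same stages, and their part in these counts was not tested. Sites of 9 of 10 listed oocyte genes numbered 174 at GV, 109 at MII, then 66, 95, 54, 12, 3 and 0 in blastocysts. Those of 3 of 8 listed blastocyst genes numbered 49 at GV, 15 at MII, 3 in 2-cell embryos and 24 in blastocysts. Cumulus and granulosa genes, which mark the follicle cells around an oocyte, had GV-called sites in 3 of 11, with 31 calls at GV, 12 at MII, 4, 9 and 2 up to the 8-cell embryo, and 0 from the 16-cell embryo on.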

How the data were processed

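The data are m6A-SAC-seq libraries of bovine oocytes and embryos. The authors deposited 1 score per adenosine and stage, with position, strand, gene, region and 5-base motif; its scale is not stated, scores above 1 occur, and identical motifs and scores recur. The submitters' processing notes name Trimmomatic 0.39 and STAR 2.5.3a. Not given in the sources used here are the genome build and annotation, the site caller, the treatment of multiply mapped reads and how libraries were combined into 1 column per stage. Columns were read as pooled stage values, and the number of sample columns left unused is 0. Input and treated arms cannot be separated.

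The table has 65536 lines with its header, a row limit of older spreadsheets. Sites of the initiation factor genes first called after MII were not analysed here, so later stages were compared at GV-called sites.

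From the scores, sites of at least 0.1 were counted per stage, gene and factor complex, with exact Clopper-Pearson intervals at 95%. Log2 ratios to GV were taken at sites called in both stages, with no pseudocount. Depth is unknown, and no test was made. Genes with at least 10 GV-called sites are given in full, as are others with at least 3 calls at a stage from the 2-cell embryo on. Counts of genes that reached a share include the gene itself and are given for stages chosen with the shares known. Sites named by rule were those called in at least 6 stages, the 5 highest GV scores, and the 5 highest and 5 lowest blastocyst to GV ratios; further sites were chosen with their values in view. The members and lists were chosen with earlier results of these data known, and EIF3CL was added to the eIF3 list after the files were seen. All 38 genes matched a protein-coding RefSeq entry, of ARS-UCD2.0, used for names alone. Alternatives were a score of 0.2, any score above 0, DRACH motifs, exonic regions, means over genes, and sets without the gene with most sites or without the eIF2 kinases, EIF5A and EIF6. The calculations were tested on simulated data. The software was Python 3.11.15 with scipy 1.17.1, pandas 2.3.3 and numpy 2.4.6, and matplotlib 3.10.9 for figures.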

Additional observations from a re-analysis of the deposited data

How the results depend on the processing

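The share of initiation factor sites called again stayed above that of all sites under 7 of 7 alternatives in 2-cell embryos and from the 8-cell embryo on, and under 6 of 7 at MII and in 4-cell embryos. The exceptions were a score of at least 0.2 at MII (26.8% against 30.0%) and DRACH motifs in 4-cell embryos (23.5% against 25.8%). Of 49 alternative shares, 39 stayed inside the interval of the main share. The other 10 were, at MII, 26.8% at 0.2, 42.1% for any score above 0, 50.0% for DRACH and 27.8% as a mean over genes; in 4-cell embryos, 21.1%, 31.3% for any score and 16.7% over genes; and for DRACH 21.6%, 17.6% and 27.5% in 16-cell embryos, morulae and blastocysts.

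By complex, 117 of 154 alternatives stayed inside the interval. Where the main share was 0, as for eIF2B at each later stage, an alternative could only give 0 again. Lists with few sites had wide intervals, so the count of 117 does not measure how stable the shares were. DRACH sites gave, for scanning factors, 0 in 2-cell embryos and 6.25% in 8-cell embryos and blastocysts, and for eIF2 kinases 55.6% at MII. For eIF3 they gave 45.7%, 2.86%, 8.57%, 34.3% and 37.1% at MII, in 2-cell, 4-cell and 16-cell embryos and in blastocysts. For eIF4 they gave 53.3%, 13.3%, 30.0% and 43.3% at MII, in 2-cell embryos, morulae and blastocysts, for EIF4ENIF1 100% at MII and 0 in 16-cell embryos, and for EIF5A with EIF6 66.7% in 2-cell and 0 in 4-cell embryos. A minimum of 0.2 gave 2.27% for scanning factors in 16-cell embryos and morulae, 19.7% and 28.8% for eIF3 at MII and in 16-cell embryos, and 26.8% for eIF4 at MII. It also gave 33.3% and 0 for EIF4ENIF1 in 4-cell and 16-cell embryos, and 0 for EIF5A with EIF6 in 2-cell embryos. Without EIF5B the scanning factors had 19.6% in 16-cell embryos and morulae and 27.5% in blastocysts. Without EIF2AK1 the kinases had 0 in 2-cell and 4-cell embryos, and eIF2 without EIF2S3 had 0 in 2-cell embryos. EIF6 without EIF5A had 0 at each later stage but the 8-cell embryo. EIF4ENIF1 is alone on its list, so no such value exists for it. The median log2 ratio to GV moved to −0.20 at MII with 0.2 and to −0.38 in 4-cell embryos with DRACH, and 12 of 14 alternatives stayed close. The causes were not tested. No paired analysis was possible because the stage columns carry no replicate. With no depth given, a site that is not called cannot be told from one with few reads.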
